A study of Mus musculus with 7 samples.

Results

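Compact myelin and mature oligodendrocyte proteins are represented here by 9 genes chosen by symbol: Mbp, Mobp, Mog, Mag, Cnp, Mal, Opalin, Cldn11 and Ermn. Each symbol was found under 1 Ensembl ID among the 17732 gene IDs of the authors' deposited table. RNA was measured in bulk medial prefrontal cortex of wild-type male 129SvEv mice, an inbred strain, after retrieval of a remote memory. The labels name 2 treatment groups, CFC with 3 libraries and SC with 4, and do not spell out either name. The ages of the mice, and whether each library came from 1 animal, are not given in the sources used here. The p-values thus set the group difference against a modelled spread between libraries, which may in part be technical. All 9 genes had an adjusted p-value in the authors' deposited table and thus passed the authors' filter on low counts.

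Oligodendrocytes wrap axons in myelin, a stack of membrane layers that speeds the conduction of nerve impulses. In compact myelin the cytoplasm is squeezed out between the layers, while the inner and outer tongues and the paranodal loops keep it. New myelin formed in adulthood has been tied to learning in the frontal cortex of rodents. The list holds proteins of several places in this structure. Mbp and Mobp lie at the cytoplasmic faces of compact myelin, Cldn11 forms its tight junctions, and Mal is a lipid-raft protein of its membrane. Mog sits on the outermost surface, Mag on the innermost surface facing the axon, and Cnp, Opalin and Ermn in or beside the channels and loops that hold cytoplasm. The name of compact myelin is therefore literal for only some of them.

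The transcription factors SOX10 and MYRF act on many myelin genes, so the sequence upstream of the members' starts is shown. Whether either factor has a part in the members' differences was not tested. RefSeq (GRCm38.p6) promoter entries matched 8 of the 9 members, all but Mbp. Windows of 250 bases before each RefSeq start were searched on both strands for ACAAAG, a core bound by SOX proteins, and for CTGGCAC, a MYRF motif. The 4 members with an ACAAAG match are printed 5′ to 3′ on the gene's strand. Capitals mark the matches to these motifs, which did not overlap each other, and CTTTGT is ACAAAG on the other strand. Bases inside the GENCODE gene were left off the ends.
Mobp, chr9:120149492-120149706, plus strand: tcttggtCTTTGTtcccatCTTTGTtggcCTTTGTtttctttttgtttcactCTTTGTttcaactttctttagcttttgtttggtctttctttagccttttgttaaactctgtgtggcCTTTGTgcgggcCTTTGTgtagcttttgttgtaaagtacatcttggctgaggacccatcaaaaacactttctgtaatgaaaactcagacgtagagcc
Mag, chr7:30914874-30915113, minus strand: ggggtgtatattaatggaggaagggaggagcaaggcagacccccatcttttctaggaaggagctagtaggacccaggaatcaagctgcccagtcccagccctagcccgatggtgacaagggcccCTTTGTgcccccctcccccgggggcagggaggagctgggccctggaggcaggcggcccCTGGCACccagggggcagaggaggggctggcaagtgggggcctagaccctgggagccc
Cnp, chr11:100574689-100574903, plus strand: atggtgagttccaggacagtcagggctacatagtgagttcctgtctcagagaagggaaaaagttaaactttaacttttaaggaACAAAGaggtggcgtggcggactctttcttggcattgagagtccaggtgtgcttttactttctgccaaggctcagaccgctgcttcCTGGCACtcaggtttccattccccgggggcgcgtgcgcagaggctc
Opalin, chr19:41077114-41077363, minus strand: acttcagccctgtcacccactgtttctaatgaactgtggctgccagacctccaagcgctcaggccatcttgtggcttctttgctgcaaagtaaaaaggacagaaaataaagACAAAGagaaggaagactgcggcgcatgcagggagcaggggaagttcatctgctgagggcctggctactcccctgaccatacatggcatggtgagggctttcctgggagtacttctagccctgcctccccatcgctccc

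The Mobp window held 6 ACAAAG matches, and of the 13542 genes of the deposited table with a promoter entry only 1, Mobp itself, had as many in 1 window. That count was singled out after it had been seen. Mag, Cnp and Opalin had 1 each in the windows shown, and Mag and Cnp also held 1 CTGGCAC match each. At least 1 ACAAAG match was present in 4 of 8 members (50%) and in 15.3% of the 13542 genes. For CTGGCAC the counts were 2 of 8 members (25%) and 5.24% of genes. No member held TATAAA, which was present in 8.96% of genes, and 1 of 8 held the GC box GGGCGG, present in 57.4%. The E-box CANNTG was present in 3 of 8 members (37.5%) and in 64% of genes. Mog, Mal, Cldn11 and Ermn had no match to ACAAAG or CTGGCAC in this window, which says only that these letters are not there. A match is a match of letters and not a measured binding site.

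**Figure D1:**
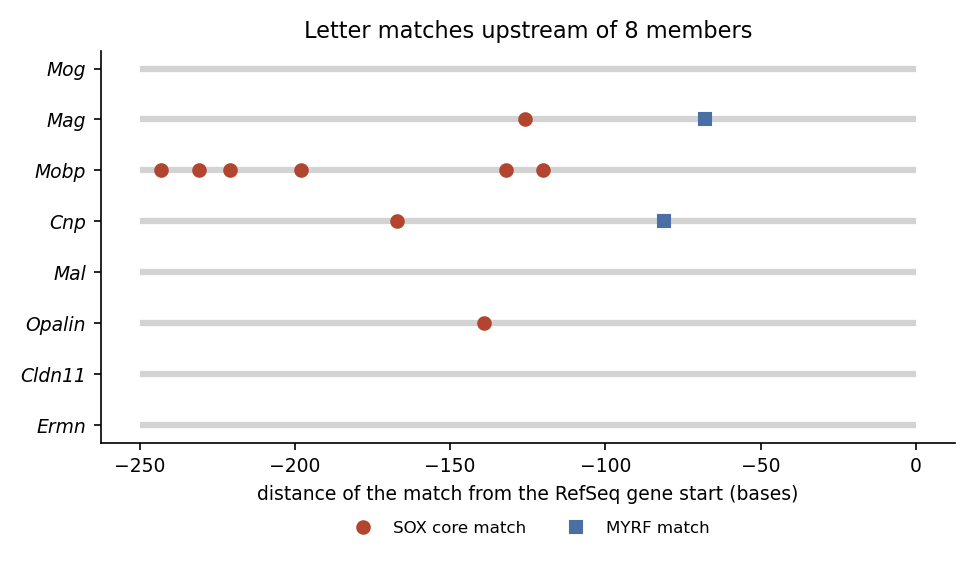
Distance in bases of each ACAAAG (SOX core) and CTGGCAC (MYRF) match from the RefSeq start, in the 250 bases upstream of 8 members (for Mag, 1 of its 3 entries). Mobp carries 6 SOX core matches, and Mag and Cnp carry both motifs.

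The values come from 1 comparison of the 2 groups that the authors deposited. Each gene has a mean normalized count, averaged over the 7 libraries, and a log2 fold change, written below as the value ± its standard error. The p-values are those of a Wald test. The table does not name its sides, and it was read as CFC and SC because the labels hold no other groups. The numerator of the fold change is not stated, so a difference is called positive or negative and neither group is called higher. Values of single libraries and their depths were not analysed here, so the overlap of the groups for a member could not be read. The difference of the 2 groups and the standard error, which carries the spread within groups, stand in for them. Fewer oligodendrocytes and less myelin RNA per oligodendrocyte cannot be told apart in bulk tissue.

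Mature oligodendrocyte RNA was well detected. The members' mean normalized counts in the authors' deposited table ran from 177 for Opalin to 12290 for Mbp, and their sum of 21746 was 0.119% of the table's total. Mbp alone gave 56.5% of that sum. Counts grow with transcript length, so levels between genes were compared per kilobase of the union of exons in GENCODE M21. On that scale Mbp had 1451 counts per kilobase, above 98.1% of the 17707 genes with a length. Cnp, a phosphodiesterase used as a marker of the lineage, followed at 547, Mobp at 525, Mal at 474 and Cldn11 at 402 counts per kilobase. Mag had 227 and Mog 215 counts per kilobase, and the lowest were Ermn at 91.2 and Opalin at 60.2. Opalin thus lay near the middle of all genes, above 48.9% of them, and the levels of the list spanned 24.1-fold per kilobase. With the longest protein-coding transcript as the length, Mbp had 2562, Mobp 1095 and Cnp 844 counts per kilobase, so the order of Mobp and Cnp depends on the length used. The errors of these levels were not in the deposited table, so neighbours in this order were not tested against each other.

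**Figure D2:**
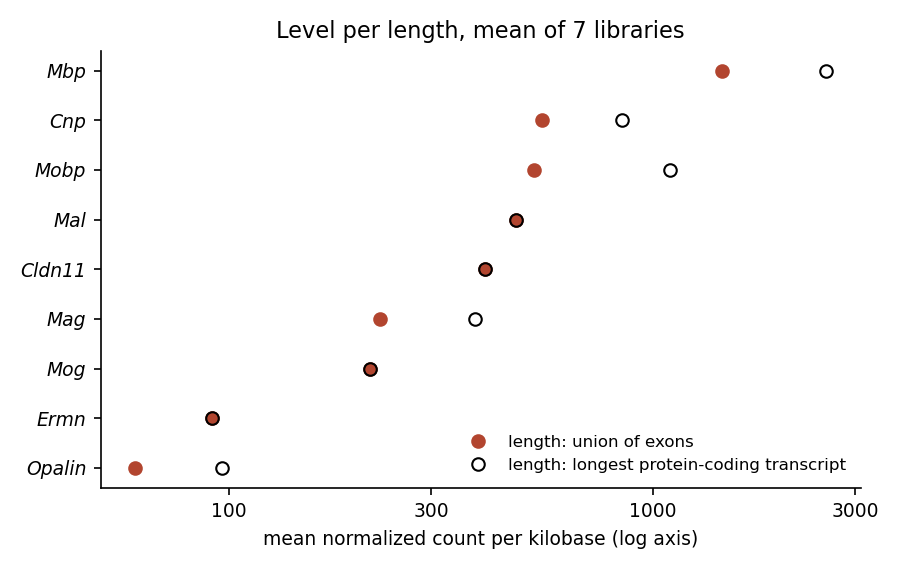
Mean normalized count per kilobase (log axis) of the 9 members over 7 libraries, with the union of exons (filled) or the longest protein-coding transcript (open) as the length. Mbp is highest and Opalin and Ermn are lowest with either length.

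The log2 difference was positive in all 9 members per the authors' deposited table, from 0.95 for Cnp to 1.67 for Mobp, with a median of 1.30. As a background, 49.4% of the 13060 genes with an adjusted p-value were positive, and their median log2 fold change was -0.0017. At an unadjusted p-value under 0.05 by the authors' Wald test stood all 9 members, all positive, where 8.1% of all genes stood with either sign and 4.56% as positive. No member passed an adjusted p-value of 0.05, which 0.513% of the listed genes with an adjusted p-value did (67 of 13060), 0.368% as positive ones. The differences were thus large for this table in size, and none passed the test when adjusted over all genes. With a t distribution of 5 degrees of freedom in place of the normal one, 4 of the 9 members (Mobp, Ermn, Cldn11 and Mal) were under 0.05 unadjusted, against 1.82% of genes positive and under 0.05. A null of a change of at most 1.2-fold also left 4 at an unadjusted p-value under 0.05, beside 0.505% of all genes as positive ones, and 4 members had an unadjusted p-value under 0.01, beside 1.8%.

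Among the proteins at the cytoplasmic face of compact myelin, Mobp (ENSMUSG00000032517, chr9:120149707-120181484, GRCm38, plus strand) was the member with the highest value. Its mean count in the authors' deposited table was 3597, and it differed by 1.67 ± 0.49 (Wald test, adjusted p = 0.105). This is a 3.17-fold difference with a 95% interval from 1.62 to 6.22. Whichever group is the numerator, a mean of 3597 over 3 and 4 libraries and this fold imply 5091 to 5910 counts on the positive side and 1604 to 1861 on the other. Mobp shares 79 exonic bases (1.15% of its own) with Gm38642 on the same strand, a transcript not analysed here. Mbp (ENSMUSG00000041607), whose protein holds the cytoplasmic faces of the membrane together, had a log2 difference of 1.15 ± 0.51 in the authors' deposited table. That is 2.22-fold with a 95% interval from 1.12 to 4.43, with a Wald test adjusted p of 0.497 in the authors' deposited table. The means it implies are 16081 to 17924 counts on the positive side and 7235 to 8064 on the other. GENCODE M21 gives Mbp 16 transcripts over 110.5 kb, and golli transcripts of this gene, made also by cells that do not make myelin, would be counted with those of classic Mbp.

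The membrane proteins of compact myelin lay between these values. Cldn11 (ENSMUSG00000037625, chr3:31149920-31164324, plus strand) had a log2 difference of 1.42 ± 0.55 in the authors' deposited table (Wald test, adjusted p = 0.359). Its fold of 2.67 had a 95% interval from 1.27 to 5.62. Mal (ENSMUSG00000027375, chr2:127633226-127656695, minus strand) had a log2 difference of 1.30 ± 0.48 in the authors' deposited table (Wald test, adjusted p = 0.312). The difference was 2.46-fold, with a 95% interval from 1.28 to 4.75. The 2 genes had mean counts of 751 (Cldn11) and 1317 (Mal) per the authors' deposited table, and their values were close to each other.

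The surface proteins Mog and Mag, an immunoglobulin-domain protein of the outer face and a sialic acid-binding lectin facing the axon, had nearly the same difference. Mog (ENSMUSG00000076439, chr17:37010743-37023398, minus strand) had 366 mean counts and a log2 difference of 1.09 ± 0.47 in the authors' deposited table. Mag (ENSMUSG00000036634, chr7:30899176-30914873, minus strand) had 926 mean counts and a log2 difference of 1.11 ± 0.50 in the authors' deposited table. Their adjusted p-values by the Wald test in the authors' deposited table were 0.483 and 0.517. Folds of 2.12 for Mog and 2.17 for Mag had 95% intervals from 1.12 to 4.03 and from 1.10 to 4.26.

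The proteins of the cytoplasm-holding regions held both the lowest and some of the highest values. Cnp (ENSMUSG00000006782, chr11:100574904-100591729, plus strand), which keeps cytoplasmic channels open in myelin, had 1990 mean counts and a log2 difference of 0.95 ± 0.44 in the authors' deposited table. Its 1.93-fold difference had a 95% interval from 1.06 to 3.49, with a Wald test adjusted p of 0.555 in the authors' deposited table. Ermn (ENSMUSG00000026830, chr2:58045113-58052864, minus strand), an actin-binding protein of mature oligodendrocytes, had 331 mean counts and a log2 difference of 1.46 ± 0.52 in the authors' deposited table. That is 2.76-fold with a 95% interval from 1.36 to 5.60, with a Wald test adjusted p of 0.26 in the authors' deposited table. Opalin (ENSMUSG00000050121, chr19:41061710-41077113, minus strand), a sialylated transmembrane protein of paranodal and inner loops, had 177 mean counts and a log2 difference of 1.41 ± 0.60 in the authors' deposited table. A fold of 2.65 had a 95% interval from 1.18 to 5.95 for Opalin, with a Wald test adjusted p of 0.449 in the authors' deposited table.

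Antisense neighbours touch a pair of these genes, and no strand setting is given in the sources used here. Exons of Ermn share 237 bases (6.52% of its own) with Galnt5, whose mean count was 5.18 per the authors' deposited table, far under that of Ermn, and whose log2 difference was 2.56 ± 1.02. Exons of Cnp share 154 bases (4.23%) with Dnajc7, with 2507 mean counts and a log2 difference of -0.05 ± 0.06 in the authors' deposited table. Reads in the shared bases cannot be assigned to either gene without the strand.

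The members' intervals overlapped throughout. From highest to lowest the order was Mobp, Ermn, Cldn11, Opalin, Mal, Mbp, Mag, Mog and Cnp. The highest lower bound of the 95% intervals was 0.70 (Mobp) and the lowest upper bound 1.81 (Cnp) on the log2 scale, so every interval overlapped every other. All 9 intervals held the median of 1.30, and all 9 held a 2-fold change. The intervals of 4 members lay wholly above a 1.2-fold change, as did those of 0.505% of all genes. By construction these are the same calls as those of the 1.2-fold null above. The 9 genes were measured in the same libraries and are not independent of each other, and differences between members were not tested because that needs values per library.

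**Figure D3:**
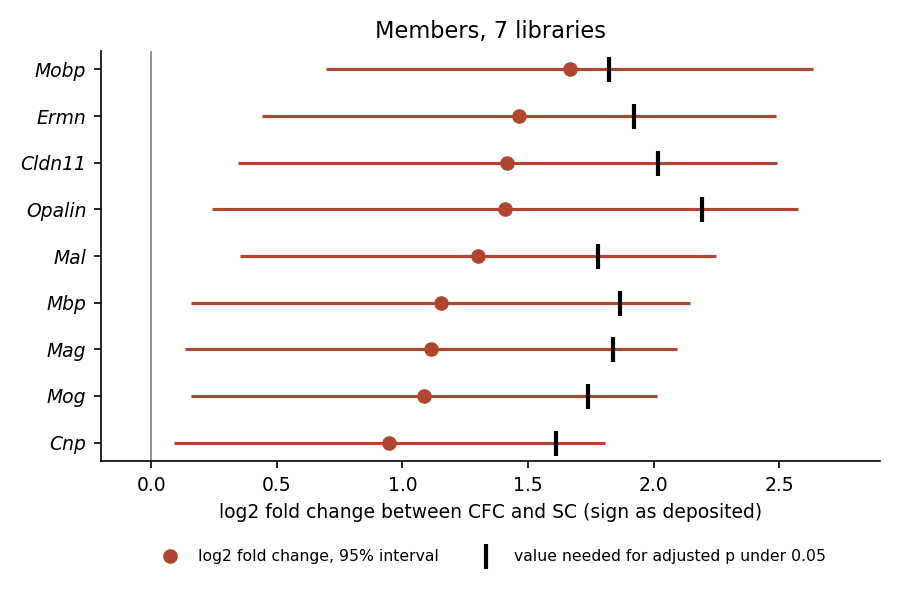
Log2 fold change of each member between the groups (points) with its 95% interval (lines), sign as deposited, over 7 libraries. Black marks show the size at which each member, with its own standard error, would have reached the smallest Wald statistic that passed; every point lies above 0 and left of its mark.

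The errors of these genes were wide for their abundance. The smallest absolute Wald statistic with an adjusted p-value under 0.05 was 3.68 in the authors' deposited table. At the members' standard errors this needs log2 fold changes from 1.61 (Cnp) to 2.19 (Opalin), and 1.82 for Mobp. The standard error of each gene was divided by the median of those of 100 genes of next lower and 100 of next higher mean count. The ratio was 9.09 for Mbp, 7.97 for Mobp, 6.75 for Mal, 6.70 for Cnp, 6.58 for Cldn11 and 6.40 for Mag. It was 4.70 for Ermn, 4.43 for Mog and 4.15 for Opalin, the members of low count. In a negative binomial model with equal depths, the standard errors of the 9 members correspond to a coefficient of variation between libraries of a group from 39.6% for Cnp to 53.4% for Opalin. Mbp stood at 46.0%, while the median of the 244 genes within 1.5-fold of its mean count and on none of the lists used here was 5.0%. For Opalin the median of 2058 such genes was 10.7%.

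Over the 11194 genes with 100 or more mean counts per the authors' deposited table, the ratio fell into separate bands. It was at most 1.67 in 10975 genes and started again at 2.13 for the other 219 (1.96%), with no gene between. All 9 members were in the upper band, as were 20 of 23 other mature oligodendrocyte and myelin genes, 5 of 7 striatal genes and 4 of 10 deep-layer genes. No oligodendrocyte precursor gene (of 9), microglial gene (of 9) or excitatory neuron gene (of 10) was there, nor any endothelial gene (of 10). The band held 1 of 10 astrocyte genes (Gfap, 0.56 ± 0.43 in the authors' deposited table), 2 of 10 interneuron genes (Pvalb and Syt2), 1 of 8 upper-layer genes (Lamp5), 1 of 2 blood genes (Hba-a1) and 1 of 2 meningeal genes (Ptgds). The log2 differences of Pvalb, Syt2, Lamp5 and Hba-a1 were negative in the authors' deposited table, from -0.40 to -0.16. DESeq2, named in the submitters' processing notes, pulls most genes' spread towards a trend and leaves that of genes far above it as estimated, so the spread quoted for the other genes would be partly the trend's. Whether this gives the gap was not tested. Positive genes made up 161 of the upper band and negative ones 58, and the band's median log2 difference was 0.25.

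**Figure D4:**
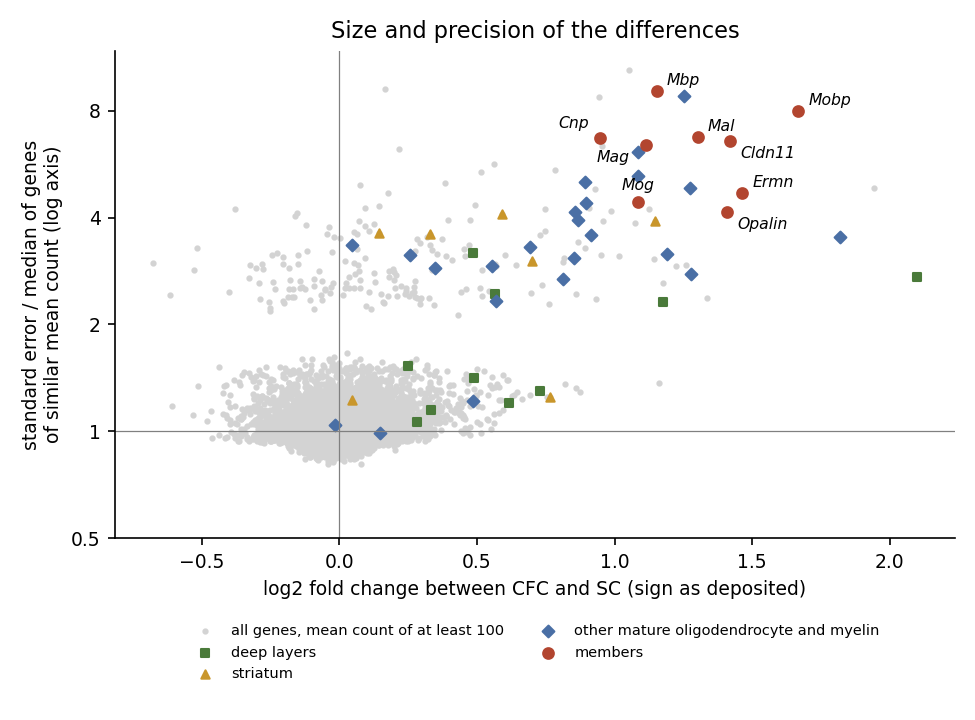
Log2 fold change (sign as deposited) against the standard error divided by the median of genes of similar mean count (log axis), for 11194 genes with 100 or more mean counts. Members (labelled) occupy the upper right, with ratios from 4.15 to 9.09, and the gap between 1.67 and 2.13 separates the bands.

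Few genes shared that corner. A log2 fold change of at least that of Cnp was found in 34 of the 11194 genes (0.304%) in the authors' deposited table, and 0 genes had a value as far below 0. Mobp was exceeded by 3 genes, Ermn by 4, Cldn11 by 5 and Opalin by 6. At or above the lowest member in both the log2 fold change and the ratio were 18 genes, the 9 members and 9 others. The members are there by construction. Of the 9 others, 6 were on a list of the oligodendrocyte lineage, and none of the 18 passed 0.05 on the adjusted p-values of the authors' deposited table. Of the 11194 genes these lists held 23 other mature oligodendrocyte and myelin genes and 7 transcription factors. They also held 9 precursor, 6 newly formed and 10 paranode and node genes, with overlaps. The lists were written with earlier results of these data known. By the ratio alone 27 genes besides the members were at or above the lowest member, 8 of them on such a list and 17 on none of the lists used here. The lists are not complete, so a gene on none of them may still be expressed in oligodendrocytes. The 3 in the corner on no list, named after their values had been seen, were Lpar1, a lysophosphatidic acid receptor, Mki67, a marker of dividing cells, and Lars2, a mitochondrial leucyl-tRNA synthetase. Per the authors' deposited table they differed by 0.99, 1.94 and 1.05 on the log2 scale. The median over all genes of that abundance was -0.0020.

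With no value per library, likeness to the members was measured as the distance from their medians in the plane of log2 fold change and log2 ratio. The 10 nearest genes included Trf, Bcas1, Tmem88b, Fa2h, Mir6236, Tspan2, Ptgds, Nnat and Myrf. Their distances ran from 0.24 to 0.66, within the members' own highest of 0.67, and 7 of the 10 were on an oligodendrocyte list. The distance is set by the members' own values and the lists were written with earlier results known, so this count is no test. Trf, the iron carrier transferrin made by oligodendrocytes, had a log2 difference of 1.09 ± 0.47 in the authors' deposited table. Fa2h, which makes hydroxylated myelin lipids, had 1.27 ± 0.54 in the authors' deposited table.

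The other genes of the lineage were read from lists written with earlier results of these data known. Of 28 other mature oligodendrocyte and myelin genes, 27 were positive with a median log2 fold change of 0.88 in the authors' deposited table. An unadjusted p-value under 0.05 was reached by 17 positive genes and 0 negative ones, and 2 passed the adjusted Wald test. Of all 13060 genes with an adjusted p-value, 49.4% were positive. As positive ones, 4.56% of the 13060 were under 0.05 unadjusted and 0.368% passed when adjusted. Ndrg1, a stress-responsive protein of myelinating glia, had a log2 difference of 0.81 ± 0.21 (Wald test, adjusted p = 0.0361) in the authors' deposited table. Ppp1r14a, an inhibitor of myosin phosphatase, stood at 1.26 ± 0.33 in the authors' deposited table (Wald test, adjusted p = 0.0408). The difference of Ndrg1 was under that of every member and that of Ppp1r14a within their range, and the standard errors of both were smaller than any member's. Ndrg1 had 857 mean counts and a ratio of 2.68. Ppp1r14a had 54.8 mean counts, under the 100 required for the bands, and a ratio of 1.35. The defining genes Aspa and Ugt8a, enzymes of acetylaspartate breakdown and galactolipid synthesis, had 1.19 ± 0.55 and 0.86 ± 0.40 in the authors' deposited table.

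Transcription factors of the lineage were all positive, 11 of 11, with a median log2 fold change of 0.27 in the authors' deposited table, and 6 had an unadjusted p-value under 0.05. St18 alone passed the adjusted Wald test, at 1.35 ± 0.28 (adjusted p = 0.00154) in the authors' deposited table. Its mean count of 72.3 and its ratio of 1.30 were under those of every member. Myrf, which turns on myelin genes in maturing oligodendrocytes, had 1.13 ± 0.39 in the authors' deposited table (Wald test, adjusted p = 0.234). Sox10, present from the precursor stage onwards, had 0.60 ± 0.31 in the authors' deposited table, and Sox8 had 0.27 ± 0.09.

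Earlier stages and neighbouring structures had smaller medians. The 10 precursor genes had a median log2 fold change of 0.05, with 6 positive and 0 at an unadjusted p-value under 0.05 in the authors' deposited table. Of all 13060 genes with an adjusted p-value, 49.4% were positive and 8.1% were under 0.05 unadjusted with either sign. The precursor markers Pdgfra and Cspg4 had -0.04 ± 0.09 and 0.05 ± 0.09 in the authors' deposited table. The 95% intervals, from -0.21 to 0.13 and from -0.13 to 0.23, lay under the lowest member's value of 0.95 (Cnp). They overlapped the 95% interval of Cnp itself, from 0.09 to 1.81 on the log2 scale. Among newly formed oligodendrocyte genes the median of 7 was -0.0048, but Enpp6 and Bcas1 had 0.97 ± 0.47 and 0.96 ± 0.50 in the authors' deposited table. The 10 paranode and node genes, which include Cldn11, had a median log2 difference of 0.08 per the authors' deposited table, and Cntn2, an axonal and glial adhesion protein, had 0.44 ± 0.16. Relatives of the members in other cells were near 0. Mal2 and Cldn5, kin of Mal and Cldn11, had 0.0078 ± 0.08 and -0.16 ± 0.14 in the authors' deposited table. Differences between these lists and the members were not tested.

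Markers of other cells were read beside the members. The peripheral myelin genes with an adjusted p-value, Prx and Pmp22, had 35.8 and 155.2 mean counts per the authors' deposited table, and log2 fold changes of -0.28 ± 0.31 and 0.14 ± 0.17. Astrocyte, microglial and endothelial lists of 10 genes each had medians of -0.12, -0.11 and -0.15 and summed mean counts per the authors' deposited table of 102515, 5815 and 4645. Negative were 8 astrocyte, 9 microglial and 10 endothelial genes, beside 6608 of all 13060 genes with an adjusted p-value. By the authors' Wald test 3, 2 and 3 of them had an unadjusted p-value under 0.05, beside 462 negative genes of the 13060. None of them passed when adjusted. The 10 excitatory neuron and 10 interneuron genes had median log2 differences of -0.0032 and -0.01 per the authors' deposited table. Excitatory genes went both ways, 5 positive and 5 negative. Camk2a, a calcium-dependent kinase of these neurons, passed the adjusted Wald test at -0.29 ± 0.06 (adjusted p = 0.00151) in the authors' deposited table, and Nrgn had -0.28 ± 0.08 (adjusted p = 0.0756). Blood genes were negative in 3 of 3 with an adjusted p-value, and their median was -0.40 per the authors' deposited table. Of the 8 genes of the meninges, the 4 with an adjusted p-value were positive, with a median of 0.37 per the authors' deposited table. Ptgds among them, which oligodendrocytes also make, had 0.93. Those of low count without an adjusted p-value went both ways. Lum and Igf2 had -0.10 ± 0.58 and -0.24 ± 0.74, and Slc22a6 and Aldh1a2 had 0.25 ± 0.53 and 0.46 ± 0.56. Ttr, a defining gene of the choroid plexus list, had 67.0 mean counts, a log2 difference of 1.86 ± 1.11 and a blank p-value in the authors' deposited table, and its ratio of 4.94 was within the members' range. Of that list only Kl had an adjusted p-value, and its log2 difference was 0.59 ± 0.22 per the authors' deposited table. Its other genes, of low count, had 0.64 ± 0.62 (Clic6), 1.22 ± 1.22 (Kcnj13) and -0.99 ± 0.79 (Kcne2). The part of choroid plexus or meningeal tissue in the members' values was not tested.

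Some neuronal lists had a shared sign, as the endothelial list did. Each of the 10 striatal genes was positive in the authors' deposited table. Their median log2 difference was 0.64 and their summed mean count 5696, and 5 had an unadjusted p-value under 0.05, with 1, Drd1, past the adjusted Wald test. Adora2a and Drd2, markers of striatopallidal neurons, had 1.95 ± 0.71 and 1.63 ± 0.70 in the authors' deposited table, and ratios of 3.35 and 3.33. Deep-layer genes, 11 of 11 positive, had a median of 0.57 and 10190 summed mean counts per the authors' deposited table, and 6 passed the adjusted Wald test. Upper-layer genes, 8 of 8 negative, had a median of -0.29 and 18834 summed mean counts per the authors' deposited table, and 2 passed. Beside these counts, 49.4% of all 13060 genes with an adjusted p-value were positive, and 4.56% were positive and under 0.05 unadjusted. When adjusted, 48 positive and 19 negative genes of the 13060 passed. Deep cortical layers and the white matter beneath them hold more oligodendrocytes than upper layers do. The part of tissue sampling in the members' values was not tested.

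**Figure D5:**
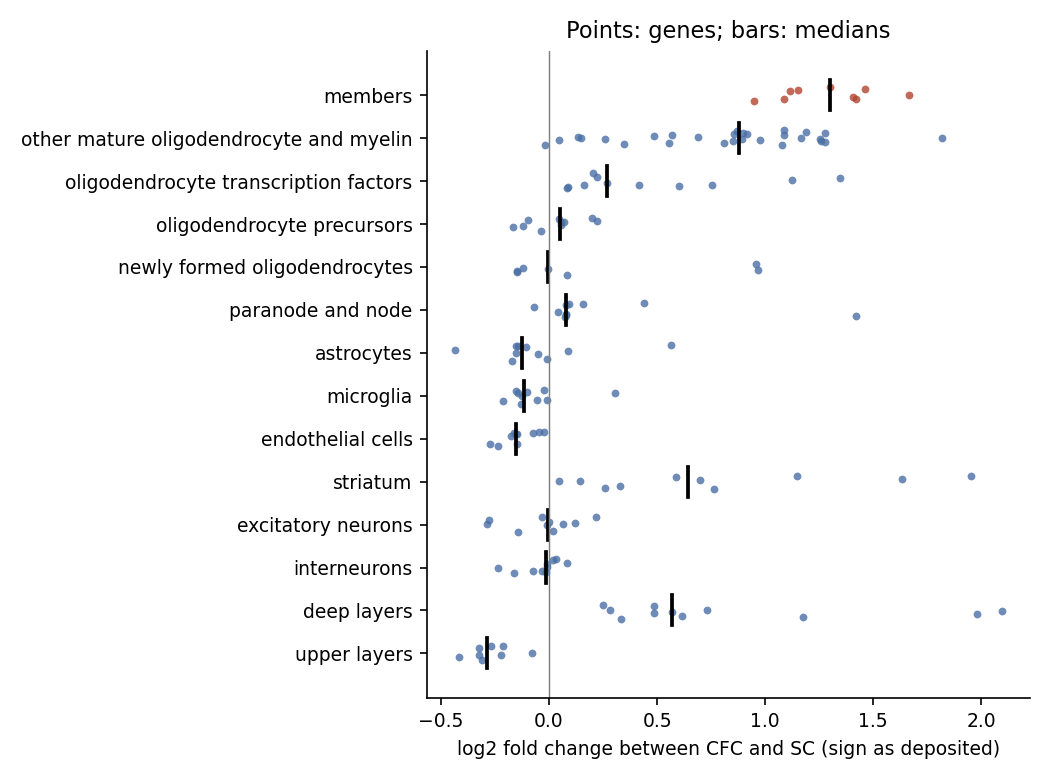
Log2 fold change (sign as deposited) of each gene with an adjusted p-value, by list, with the median as a black bar. The members lie between 0.95 and 1.67. The transcription factor, deep-layer and striatal genes are also all above 0, and the upper-layer and endothelial genes are all below 0.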

How the data were processed

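Transcripts were measured in 7 poly(A) libraries, made from 100 ng of RNA with the KAPA mRNA HyperPrep kit per the labels' protocols, and the authors deposited 1 table of their comparison of the 2 groups. Its columns, per the file headers, are the mean normalized count (a signal averaged over libraries), log2 fold change, standard error, Wald statistic (a score), p-value and adjusted p-value. Trimmomatic, Subread and DESeq2 and the build mm10 are named in the submitters' processing notes, with no version or role; the annotation, the strand setting and the numerator are not given in the sources used here. The planned fallback was used, the authors' own Wald test adjusted over all genes at a threshold of 0.05, since values per library were not analysed here.

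The 95% intervals come from the standard errors and the normal distribution. Levels were divided by lengths from GENCODE M21 (GRCm38). Calculations used Python 3.11.15, numpy 2.4.6, pandas 2.3.3 and scipy 1.17.1 and were tested on simulated data. Named were all 9 members, for each list its marked defining genes and the 2 smallest p-values where a result turned on them, and the 10 nearest genes, except for items not reported here. Ctgf is listed as Ccn2, and Tmem2, Mall, Pmp2, Hbb-bs, S100a8, S100a9 and Folr1 were not analysed here. The members and lists were chosen with earlier results of these data known.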

Additional observations from a re-analysis of the deposited data

How the results depend on the processing

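No paired analysis was possible because values of single libraries were not analysed here. For the same reason leaving out a library, a replicate block and another normalization were not run, and whether 1 library decides the members' values was not tested. No member passed under any of the 7 alternatives to the authors' adjustment, of which the adjustment over the listed genes with an adjusted p-value was chosen after seeing the data. Their adjusted p-values ranged from 0.0954 (Mobp) to 1 over these. The 9 members at an unadjusted p-value under 0.05 became 4 with a t distribution of 5 degrees of freedom, 4 when a change of at most 1.2-fold was the null and 4 at a threshold of 0.01, each stricter by construction; of all 13060 genes 238, 66 and 235 were then positive calls. The 67 genes under an adjusted p-value of 0.05 became 0 with the t distribution, 2 with the 1.2-fold null, 21 with Bonferroni and 101 at a threshold of 0.1. They were 60 with no filter on the mean count, 63 with a mean count of at least 10 and 69 over the listed genes. For Mobp the adjusted p-value of the Wald test was 0.0954 over the listed genes and 0.105 by the authors' adjustment. The authors' adjustment thus took in more genes than the 13060, and shares given over the 13060 do not cover those further genes. The ratios of standard errors ran from 4.19 to 9.25 with 25 genes on either side. The depth of single libraries is unknown.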
